A study of Mus musculus with 11 samples.

Results

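A set of 9 genes of the NF-kappaB pathway and of inflammation was followed in hippocampus of mice that had received intranasal insulin. They were picked by gene symbol, and all 9 had a row among the 46202 rows of the deposited table. They comprise the feedback inhibitors Nfkbia, Tnfaip3 and Socs3, and Nfkbiz of the IkappaB family. The others are the adhesion molecule Icam1, the chemokines Ccl2 and Cxcl10, and the cytokines Il1b and Tnf. The test covered 8 of them and left out Cxcl10, whose mean with missing values at the lowest value (-10.76) lay under the filter cutoff. It had a value in 5 of 11 libraries.

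The mice were males of the strain written C3-C57B1/6J in the labels, 2 to 3 months of age. Saline controls had 3 libraries. Insulin had 3 libraries each for 1 h and 6 h, and for 15 min it had 2, replicates 1 and 3. The insulin dose was 2.4 IU per nare, and the labels set the study in the context of lipid metabolism in the brain and its astrocytes. The control libraries are saline in their titles and untreated in another label, with 0 min as their time, so no saline library is labelled with a later time. All mice were anaesthetized with isoflurane before the hippocampus was removed. The labels give 3 animals per time but do not tie each library to 1 animal, and p-values describe how far the libraries differ, which may be technical.

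NF-kappaB is a family of transcription factors held in the cytoplasm by IkappaB proteins. Cytokine and pattern receptors activate the IKK kinases, IkappaB alpha is degraded, and the freed factors switch on inflammatory genes together with their own inhibitors, which end the response. In the brain, microglia, astrocytes and the cells of blood vessels carry much of this pathway, and glucocorticoids are known to induce Nfkbia as well.

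Each value below is a log2 signal, on which a difference of 1 is a doubling. The signals were quantile normalized between libraries, and from the values they appear to be scaled per length of transcript, since the lowest values of 4671 sparsely detected rows fell with spliced length (slope -0.78 on log2 axes). The depth of the libraries is unknown. A gene was called changed where limma's adjusted p was under 0.05 over all rows tested. On this scale the median change against saline over all rows came to -0.14 for the 15 min group, -0.11 for the 1 h group and -0.04 for the 6 h group, and the changes of single genes should be read against that.

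Promoters of NF-kappaB target genes carry short response elements, and 4 promoters of these genes are shown so that the letters can be set beside the values. RefSeq promoters on GRCm38.p6 were found for 7 of the 9 genes, in 8 windows of 250 bases that end just before an annotated start. Both strands were searched for the NF-kappaB consensus, for the AP-1 motif TGAGTCA, for the interferon response element, for the STAT motif TTCNNNGAA and for the paired glucocorticoid receptor motif ACANNNTGT. Capitals mark the matches, none of which overlap each other. The windows are chr12:55492648-55492897 for Nfkbia, chr10:19015411-19015660 for Tnfaip3, chr5:92348890-92349139 for Cxcl10 and chr11:117969367-117969616 for Socs3, all on the minus strand and printed 5′ to 3′ along the gene.
Nfkbia: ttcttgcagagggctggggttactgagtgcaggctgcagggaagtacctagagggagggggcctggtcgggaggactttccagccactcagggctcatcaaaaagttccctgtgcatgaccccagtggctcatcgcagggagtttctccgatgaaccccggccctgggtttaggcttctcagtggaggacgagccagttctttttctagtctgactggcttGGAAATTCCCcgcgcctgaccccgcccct
Tnfaip3: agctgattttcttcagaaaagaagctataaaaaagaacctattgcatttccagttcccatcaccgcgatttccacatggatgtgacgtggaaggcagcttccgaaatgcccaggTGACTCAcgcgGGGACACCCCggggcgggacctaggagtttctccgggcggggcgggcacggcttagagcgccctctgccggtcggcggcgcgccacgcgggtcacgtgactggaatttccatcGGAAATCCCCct
Cxcl10: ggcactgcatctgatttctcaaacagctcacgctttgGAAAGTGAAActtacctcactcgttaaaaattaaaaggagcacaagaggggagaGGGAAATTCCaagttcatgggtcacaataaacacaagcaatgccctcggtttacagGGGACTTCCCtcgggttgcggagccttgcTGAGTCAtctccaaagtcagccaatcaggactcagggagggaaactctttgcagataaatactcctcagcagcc
Socs3: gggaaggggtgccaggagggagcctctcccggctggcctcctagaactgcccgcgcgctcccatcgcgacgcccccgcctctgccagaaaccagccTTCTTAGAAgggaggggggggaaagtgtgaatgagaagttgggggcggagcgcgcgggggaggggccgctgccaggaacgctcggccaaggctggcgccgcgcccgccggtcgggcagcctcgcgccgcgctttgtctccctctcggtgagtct

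The Nfkbia window held 1 NF-kappaB match, GGAAATTCCC, at 29 to 20 bases before the start. Tnfaip3 held 2, at 125 to 116 and at 12 to 3 bases before the start, with an AP-1 match at 136 to 130. Cxcl10 held 2 as well, at 159 to 150 and 103 to 94 bases, beside an AP-1 match at 74 to 68 and an interferon response match at 213 to 204. Socs3 held no NF-kappaB match but a STAT match at 154 to 146 bases, and Icam1 a STAT match at 42 to 34 bases. Stretches that depart from the NF-kappaB consensus in 1 letter were not counted, such as TGGAAATTCC in the Icam1 window. The windows of Il1b and Tnf and the other window of Tnfaip3 held none of these letters. None of the 7 genes with a window held the glucocorticoid receptor motif, and Nfkbiz and Ccl2 had no window to search. Among 32851 RefSeq windows of the same length, 3.9% held the NF-kappaB consensus, 4.46% the AP-1 motif, 2.98% the interferon response element, 7.02% the STAT motif and 5.84% the glucocorticoid receptor motif. A match describes the letters alone. Of the 3 genes with an NF-kappaB match, Nfkbia was called higher after insulin at 1 h, Tnfaip3 was not called at any time, and Cxcl10 could not be tested.

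Nfkbia encodes IkappaB alpha, the inhibitor that binds NF-kappaB in the cytoplasm and is itself an NF-kappaB target (chromosome 12, 55489409 to 55492647, minus strand). Its log2 signal was 1.81, 1.81 and 2.20 with saline, 2.80 and 2.50 at 15 min, 2.82, 2.75 and 2.62 at 1 h, and 2.42, 2.41 and 2.17 at 6 h. All 15 min and 1 h libraries lay above all saline libraries, while at 6 h the lowest library lay just under the highest saline library. At 1 h Nfkbia was higher, with 2.73 ± 0.10 against 1.94 ± 0.22 with saline (SD, n = 3 each), a 1.73-fold difference (log2 change 0.79, SE 0.13, 95% interval 0.51 to 1.08, limma adjusted p = 0.0235). It was the only one of the 8 tested genes called in any comparison, set against 0.877% of all rows called at 1 h and 0.13% called higher. At an unadjusted p under 0.05, 1 of the 8 and 15.7% of all rows stood at 1 h. The call was lost without 1 h replicate 1 (adjusted p = 0.107), without 1 h replicate 2 (0.0928), without saline replicate 1 (0.107), without saline replicate 2 (0.0844) with only the 1 h and saline groups in the fit (0.0501) and with the replicate number as a block (0.0537), while the log2 change stayed between 0.73 and 0.92 under every alternative run.

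At 15 min Nfkbia averaged 2.65 ± 0.21 (n = 2), against 1.94 ± 0.22 with saline (n = 3), a log2 change of 0.71 (SE 0.14, 95% interval 0.40 to 1.03) that did not pass the threshold (limma adjusted p = 0.0855). None of the 8 genes was called at 15 min, where 0.239% of all rows were, and 3 of the 8 had an unadjusted p under 0.05 (limma), against 15.1% of all rows. At 6 h the mean was 2.33 ± 0.14 (n = 3), 0.40 above saline (SE 0.13, 95% interval 0.11 to 0.68, limma adjusted p = 0.673). None of the 8 was called at 6 h either, where 0% of all rows were, and 2 of the 8 had an unadjusted p under 0.05, against 6.98% of all rows.

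Between insulin times, Nfkbia was lower in every 6 h library than in every 1 h library. The difference, -0.40 (SE 0.13, 95% interval -0.68 to -0.12), had an unadjusted p of 0.0105 and did not pass after adjustment (limma adjusted p = 0.288). The difference of 1 h over 15 min was 0.08 (95% interval -0.23 to 0.40), with the libraries of both times interleaved. No member was called in any of the 3 comparisons between insulin times, which called 0% of all rows for 1 h against 15 min, 0.0108% for 6 h against 1 h and 0.00723% for 6 h against 15 min. At an unadjusted p under 0.05 these comparisons held 0, 1 and 1 members (limma), against 3.49%, 11.1% and 14.2% of all rows. With all insulin libraries pooled, Nfkbia was 0.62 above saline (SE 0.14, limma adjusted p = 0.141), no member was called against 0.119% of all rows, and 1 had an unadjusted p under 0.05, against 12.1% of all rows.

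**Figure D1:**
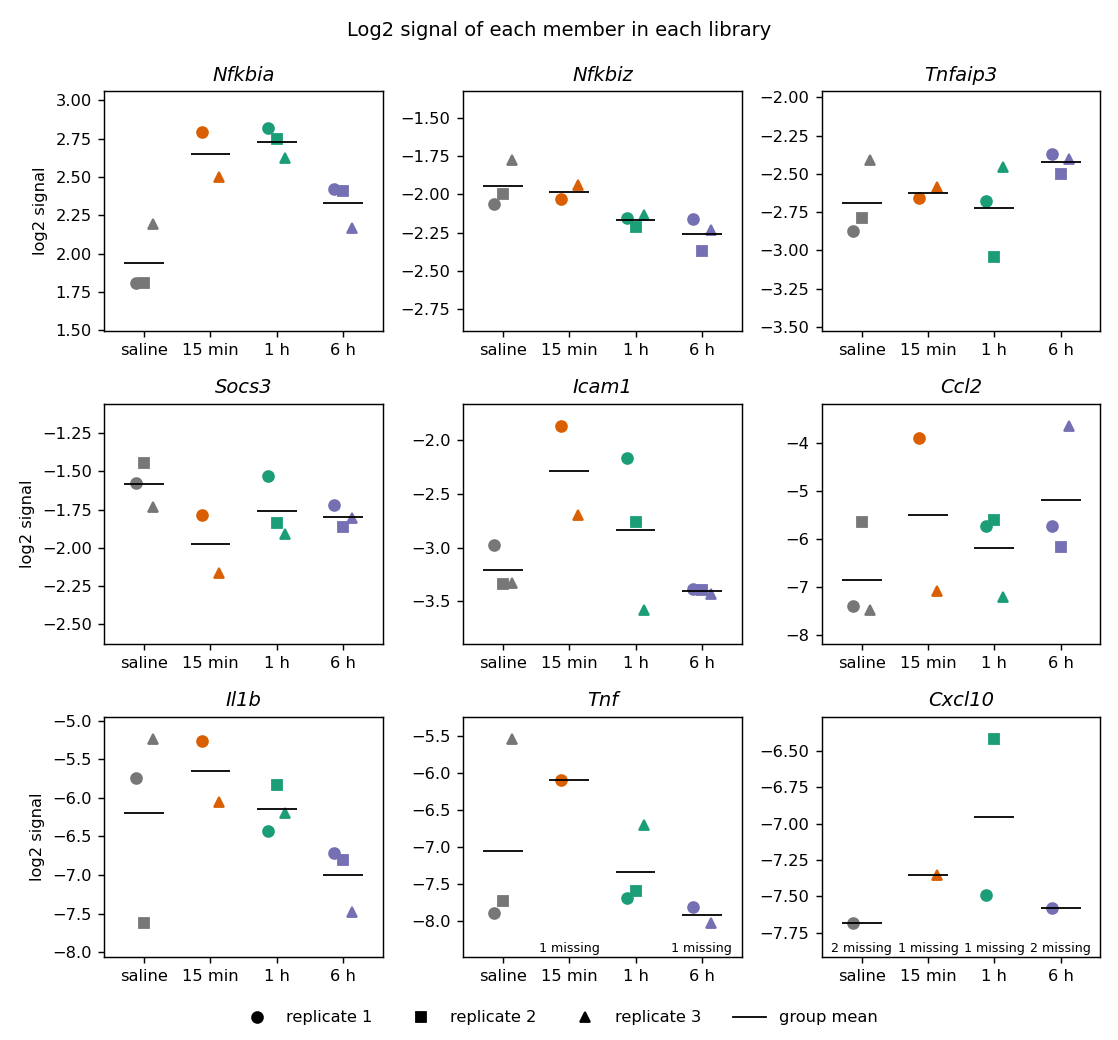
Log2 signal of each of the 9 genes (vertical axis, own range in each panel) in the libraries of saline, 15 min, 1 h and 6 h; symbols give the replicate, bars the group mean, and missing values are counted under the points. Nfkbia lies above all saline libraries in every 15 min and 1 h library, whereas Icam1, Ccl2, Il1b and Tnf spread over more than 1 log2 unit within at least 1 group.

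Nfkbiz encodes IkappaB zeta, a nuclear member of the IkappaB family that is induced by NF-kappaB and helps switch on secondary inflammatory genes (chromosome 16, 55811375 to 55838954). Its log2 signal was -2.07, -2.00 and -1.77 with saline, -2.03 and -1.94 at 15 min, -2.15, -2.21 and -2.13 at 1 h, and -2.16, -2.37 and -2.23 at 6 h. The 15 min libraries lay among the saline ones, and every 1 h and 6 h library lay below all of them. The differences were small. The log2 change was -0.04 at 15 min (SE 0.13, limma adjusted p = 0.917), -0.22 at 1 h (SE 0.12, adjusted p = 0.409) and -0.31 at 6 h (SE 0.12, 95% interval -0.57 to -0.05, unadjusted p = 0.0251, adjusted p = 0.702). The 15 min value turned positive after cyclic loess (0.15), without 15 min replicate 1 (0.011) and without saline replicate 3 (0.048). At 1 h and 6 h, 21.5% and 8.78% of all rows likewise lay lower with no overlap with saline.

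Tnfaip3 encodes A20, an enzyme that edits ubiquitin chains and shuts off signalling upstream of IKK (chromosome 10, 19000910 to 19015410, minus strand). It had log2 signals of -2.87, -2.79 and -2.41 with saline, -2.66 and -2.59 at 15 min, -2.68, -3.04 and -2.46 at 1 h, and -2.37, -2.50 and -2.40 at 6 h. Every insulin group overlapped the saline range. The change was 0.07 at 15 min (95% interval -0.37 to 0.51, limma adjusted p = 0.902), -0.03 at 1 h (-0.43 to 0.36, adjusted p = 0.948) and 0.26 at 6 h (-0.13 to 0.66, adjusted p = 0.74). Each interval leaves out the 1.73-fold difference of Nfkbia at 1 h in log2 terms (0.79). The signs at 15 min and 1 h turned round when 1 library was left out (without saline replicate 1 at 15 min, -0.023; without 1 h replicate 2 or saline replicate 3 at 1 h, 0.12 and 0.10).

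Socs3, a feedback inhibitor of cytokine receptors that signal through JAK and STAT3 (chromosome 11, 117966079 to 117970336, minus strand), had log2 signals of -1.58, -1.45 and -1.73 with saline, -1.79 and -2.17 at 15 min, -1.53, -1.84 and -1.91 at 1 h, and -1.72, -1.87 and -1.81 at 6 h. Both 15 min libraries lay below all saline libraries, and the 1 h and 6 h libraries overlapped them. At 15 min the log2 change was -0.39 (SE 0.16, 95% interval -0.75 to -0.03, unadjusted p = 0.0366, limma adjusted p = 0.300). At 1 h it was -0.17 (SE 0.15, adjusted p = 0.614) and at 6 h -0.21 (SE 0.15, adjusted p = 0.74). SOCS proteins also bind the insulin receptor and its substrates, which makes Socs3 a gene of both pathways. At 15 min, 31.1% of all rows lay lower with no overlap with saline.

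Icam1, the adhesion molecule through which leukocytes stick to activated vessel walls (chromosome 9, 21015940 to 21028814, plus strand), had log2 signals of -2.97, -3.33 and -3.33 with saline, -1.87 and -2.70 at 15 min, -2.17, -2.76 and -3.58 at 1 h, and -3.38, -3.39 and -3.43 at 6 h. Both 15 min libraries lay above saline, the 1 h libraries spread from above to below it, and the 6 h libraries sat together just under it. The 15 min mean of -2.28 ± 0.58 (n = 2) against -3.21 ± 0.21 with saline (n = 3) gave a log2 change of 0.93 (SE 0.37, 95% interval 0.10 to 1.75, unadjusted p = 0.0308, limma adjusted p = 0.284). It was 0.51 without 15 min replicate 1 and 1.34 without 15 min replicate 3. At 1 h the change was 0.37 (SE 0.33, adjusted p = 0.632) and at 6 h -0.19 (SE 0.33, adjusted p = 0.883). For 6 h against 15 min it was -1.12 (SE 0.37, 95% interval -1.94 to -0.30, unadjusted p = 0.0126, adjusted p = 0.245), and every 6 h library lay below both 15 min libraries. Higher values with no overlap with saline were found for 6.96% of all rows at 15 min, and lower ones at 6 h against 15 min for 7.08%.

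The chemokine Ccl2, which recruits monocytes (chromosome 11, 82035577 to 82037452), had log2 signals of -7.39, -5.65 and -7.48 with saline, -3.89 and -7.08 at 15 min, -5.72, -5.61 and -7.21 at 1 h, and -5.73, -6.17 and -3.65 at 6 h. Every group overlapped every other, and 1 library at 15 min and 1 at 6 h stood more than 2 log2 units above the rest of their group. The change was 1.35 at 15 min (SE 1.04, limma adjusted p = 0.566), 0.66 at 1 h (SE 0.93, adjusted p = 0.782) and 1.66 at 6 h (SE 0.93, 95% interval -0.42 to 3.74, adjusted p = 0.721). Without 15 min replicate 1 the 15 min change was -0.24. In 5 of its 11 libraries Ccl2 lay within 1 log2 unit of the level at which sparsely detected rows of like length end (median -7.04), so small changes of this gene could not be detected.

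Il1b, the cytokine made by activated microglia and macrophages (chromosome 2, 129364569 to 129371164, minus strand), had log2 signals of -5.74, -7.62 and -5.24 with saline, -5.26 and -6.05 at 15 min, -6.43, -5.83 and -6.19 at 1 h, and -6.72, -6.81 and -7.47 at 6 h. The saline libraries spanned the values of all others, and the 6 h libraries lay below all those of 15 min and 1 h. The change against saline was 0.55 at 15 min (SE 0.62, limma adjusted p = 0.712), 0.05 at 1 h (SE 0.56, adjusted p = 0.977) and -0.80 at 6 h (SE 0.56, 95% interval -2.04 to 0.44, adjusted p = 0.743). The sign at the earlier times was not firm. Without saline replicate 2 the changes were -0.17 at 15 min and -0.66 at 1 h, and the 1 h change was also negative without 1 h replicate 2 (-0.11) and with the pseudocount (-0.027). For 6 h against 15 min the difference was -1.35 (SE 0.62, 95% interval -2.74 to 0.04, adjusted p = 0.365), and for 6 h against 1 h -0.85 (SE 0.56, adjusted p = 0.615), a comparison in which 3.17% of all rows lay lower with no overlap.

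Tnf, the cytokine that gives the classical signal for NF-kappaB (chromosome 17, 35199367 to 35202007, minus strand), was near the end of what was detected. It had log2 signals of -7.90, -7.73 and -5.55 with saline, -6.09 in 15 min replicate 1 with no value in replicate 3, -7.70, -7.60 and -6.71 at 1 h, and -7.81 and -8.03 at 6 h with no value in replicate 2. Saline replicate 3 held the highest value of all. The changes were 0.97 at 15 min (SE 0.90, limma adjusted p = 0.644, resting on 1 insulin library), -0.28 at 1 h (SE 0.64, adjusted p = 0.875) and -0.86 at 6 h (SE 0.71, adjusted p = 0.772, with 2 insulin libraries). With each missing value put at its library's minimum, the 15 min change was -2.81, and without saline replicate 3 the 1 h change was 0.48. In 6 of 9 libraries Tnf lay within 1 log2 unit of the end of detection for its length (median -8.26).

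Cxcl10, an interferon and NF-kappaB induced chemokine that attracts T cells (chromosome 5, 92346638 to 92348889, minus strand), was listed with a value in saline replicate 1 (-7.68), 15 min replicate 3 (-7.35), 1 h replicates 1 and 2 (-7.49 and -6.42) and 6 h replicate 1 (-7.58). The remaining 6 libraries had none. No comparison was made for it.

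Set in order of level over all libraries, Nfkbia stood far above the rest, with 94.2% of the tested rows below its mean. Socs3, Nfkbiz, Tnfaip3 and Icam1 followed near the middle of the table, with 54%, 50.9%, 46.3% and 43% of rows below them. Ccl2 and Il1b lay low, with 20.2% and 17.8%, and Tnf near the bottom with 2.1%. The order of neighbours was not firm. Nfkbiz and Socs3 overlapped in range, as did Tnfaip3 and Icam1, Ccl2 and Il1b, and Il1b and Tnf. The spread between libraries of 1 group was larger for Icam1, Ccl2, Il1b and Tnf, the lowest of the tested genes. It did not follow the level gene by gene. The within-group SD was 0.17 for Nfkbia, 0.10 for Nfkbiz, 0.21 for Tnfaip3 and 0.17 for Socs3, against 0.45 for Icam1, 1.33 for Ccl2, 0.76 for Il1b and 0.90 for Tnf.

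**Figure D2:**
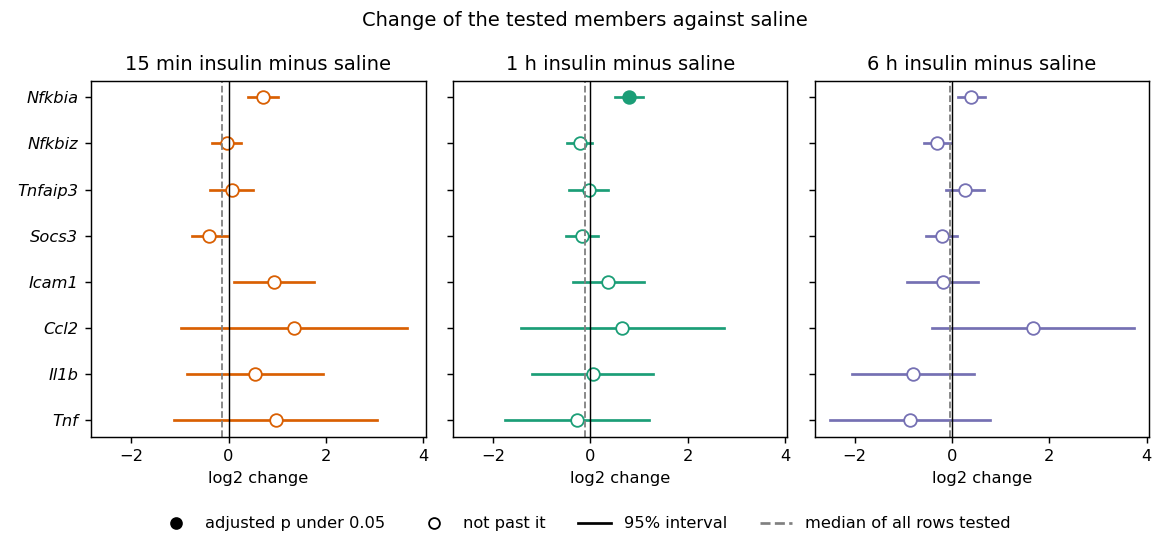
Log2 change of the 8 tested genes at 15 min, 1 h and 6 h of insulin minus saline (horizontal axis), with 95% intervals; the filled point passed an adjusted p of 0.05 and the dashed line is the median over all rows. Nfkbia at 1 h (0.79) is the one filled point. The intervals of Ccl2, Il1b and Tnf are several times as wide as those of Nfkbia, Nfkbiz, Tnfaip3 and Socs3.

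As a group the 8 genes had changes of both signs at each time. At 15 min 6 had a positive change, against 31.3% of all rows, and their median was 0.63 where that of all rows was -0.14; 3 of these 6 were Ccl2, Il1b and Tnf, whose groups overlapped saline or had a missing value. That median depended on 15 min replicate 1 and on the genes of low level. Without that replicate the median was 0.10 over 7 genes, 5 of them positive, since Tnf then had no value at 15 min. It was 0.056 with the pseudocount of 0.1 and 0.32 without saline replicate 2. Under the stricter filter, which leaves out Ccl2, Il1b and Tnf, it was 0.067 over 5 genes, 3 of them positive. At 1 h 4 were positive, against 33.2% of all rows, with a median of 0.01. At 6 h 3 were positive, against 43% of all rows, with a median of -0.20. At 15 min 2 genes lay higher than saline with no overlap (Nfkbia and Icam1) and 1 lower (Socs3), against 6.96% and 31.1% of all rows. At 1 h 1 lay higher (Nfkbia) and 1 lower (Nfkbiz), against 6.27% and 21.5%. At 6 h none lay higher and 2 lower (Nfkbiz and Icam1), against 4.31% and 8.78%.

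Which library of a group was highest differed between these genes. Of the 7 genes measured in all libraries, 15 min replicate 1 held the higher value of its pair for 5 (Nfkbia, Socs3, Icam1, Ccl2 and Il1b). It held the lower value for Nfkbiz and Tnfaip3. Saline replicate 3 was the highest of its group for 4 (Nfkbia, Nfkbiz, Tnfaip3 and Il1b) and the lowest for Socs3 and Ccl2. The highest at 6 h was replicate 1 for 6 genes, all but Ccl2. The shares over all rows were not computed, so these counts are a description.

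The profile of Nfkbia was closest to those of Rhpn2, Plekhf1 and Klf15 among 16511 genes with a value in every library. Likeness was the root mean square difference of centred log2 signals over the 11 libraries, 0.10, 0.10 and 0.12 log2 units, where the SD of Nfkbia's own profile was 0.35. Klf15 is a transcription factor known to respond to glucocorticoids and to fasting. It had 0.93, 0.86 and 1.14 with saline, 1.62 and 1.44 at 15 min, 1.62, 1.74 and 1.59 at 1 h, and 1.16, 1.31 and 1.30 at 6 h. All insulin libraries lay above saline. At 1 h the log2 change was 0.67 for Klf15, 0.67 for Plekhf1 and 0.62 for Rhpn2, which is a description, since the 3 genes were chosen for their likeness to Nfkbia over these libraries. The nearest genes to Icam1 were Apold1, an early gene of vessel cells, at 0.32, then Kcnmb3 (0.33) and Nudt12 (0.35), where the SD of the Icam1 profile was 0.54. Nfkbiz came closest to Il1rapl1, Tnfaip3 to Cntnap3 and Socs3 to Eif2b1, at 0.06, 0.10 and 0.08. The nearest genes of Ccl2 and Il1b, Hspb7 and Synb, were no closer than 0.92 and 0.42.

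**Figure D3:**
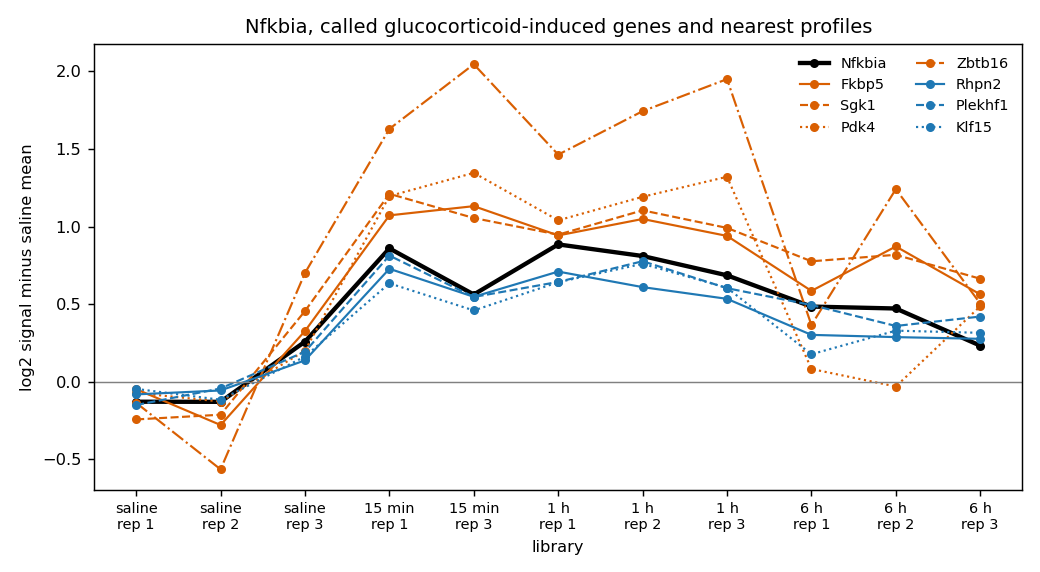
Log2 signal minus the gene's saline mean (vertical axis) in each of the 11 libraries (horizontal axis) for Nfkbia in black, 4 called glucocorticoid-induced genes in orange and the 3 nearest profiles in blue; lines only join the points of 1 gene. All 8 genes lie above their saline mean in every 15 min and 1 h library, and saline replicate 3 is the highest saline library for each; the blue genes were chosen for their likeness to Nfkbia and the orange ones for being called higher, so the shared course follows from the choice.

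The other genes of the pathway were read from lists of its steps. The counts at an unadjusted p under 0.05 given for these lists stand beside 15.1%, 15.7% and 6.98% of all rows at 15 min, 1 h and 6 h. None of the 10 genes of NF-kappaB subunits and other inhibitor proteins was called at any time against saline, and none had an unadjusted p under 0.05 by limma. Nfkb1, the subunit made as p105 and cut to p50, had log2 signals of -1.33, -1.37 and -1.16 with saline, -1.62 and -1.41 at 15 min, -1.75, -1.56 and -1.36 at 1 h and -1.57, -1.42 and -1.54 at 6 h. Its change at 1 h was -0.27 (limma adjusted p = 0.321), with 1 h replicate 3 inside the saline range. Nfkbid, a nuclear IkappaB, had a log2 change of -0.27 at 15 min (adjusted p = 0.433).

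Upstream, none of 33 IKK kinases, adaptors and ubiquitin regulators was called, and 3, 4 and 2 had an unadjusted p under 0.05 at 15 min, 1 h and 6 h (limma). Tab1, an adaptor of the kinase TAK1, had a log2 change of -0.29 at 15 min (limma adjusted p = 0.18) and -0.30 at 1 h (adjusted p = 0.0947), with all insulin libraries of both times below saline. Sharpin, part of the linear ubiquitin complex, had one of -0.24 at 15 min (adjusted p = 0.179). Of 25 cytokine, chemokine and pattern receptors, 24 were tested and none was called, with 2, 4 and 1 at an unadjusted p under 0.05. The leukaemia inhibitory factor receptor Lifr had 0.36 at 1 h (adjusted p = 0.241) and the interferon gamma receptor chain Ifngr2 -0.25 (adjusted p = 0.255).

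Of 26 other cytokines and chemokines, 19 were tested and none was called, while 4, 5 and 0 had an unadjusted p under 0.05 at 15 min, 1 h and 6 h (limma). Cxcl1, a chemokine for neutrophils, had log2 signals of -5.78, -7.23 and -5.03 with saline, -2.27 and -3.91 at 15 min, -5.31, -4.88 and -5.20 at 1 h, and -5.73 and -4.37 at 6 h with 1 value missing. Both 15 min libraries lay above every other library with a value. The 15 min change was 2.92, or 7.58-fold (SE 0.70, limma adjusted p = 0.142), and as for Icam1 and Ccl2 the higher value was that of replicate 1. Tnfsf10, which encodes the death ligand TRAIL, lay lower than saline in all libraries of 15 min (-1.04, adjusted p = 0.125) and 1 h (-0.99, adjusted p = 0.0704).

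Of 24 other inflammatory targets, 22 were tested and none was called, with 4, 3 and 2 at an unadjusted p under 0.05 (limma). The AP-1 subunit gene Junb had log2 signals of 3.05 and 3.41 at 15 min, against 2.09, 2.17 and 2.47 with saline, a change of 0.99 (limma adjusted p = 0.122). Plau, the plasminogen activator urokinase, had -3.52 and -3.61 at 15 min, against -2.99, -2.64 and -2.76 with saline, a change of -0.77 (adjusted p = 0.102). Both groups were apart in both genes. Among 23 SOCS, JAK and STAT genes none was called, with 6, 4 and 1 at an unadjusted p under 0.05. Stat2, a factor of the interferon pathway, had a log2 change of -0.30 at 15 min (adjusted p = 0.226) and the kinase gene Jak3 one of 0.50 at 6 h (adjusted p = 0.7). None of 20 interferon-stimulated genes was called, with 0, 2 and 2 at an unadjusted p under 0.05. Their median change at 6 h lay 0.23 below that of all rows, and Ifitm3, an antiviral membrane protein, had -0.88 at 6 h (adjusted p = 0.642). Xaf1, another of these genes, had -0.29 at 1 h (adjusted p = 0.274).

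Glucocorticoid-induced genes were read beside these because glucocorticoids are known to induce Nfkbia. Of 17 tested, none of them among the 9 genes followed, 3 were called higher at 15 min, where 0.0434% of all rows were, 4 at 1 h and 0 at 6 h. Higher values at an unadjusted p under 0.05 (limma) were found for 12, 10 and 7 of them at 15 min, 1 h and 6 h, against 1.86%, 2.87% and 2.75% of all rows. In either direction the counts were 13, 11 and 7, the lower one at 15 min and 1 h being Mt2, a metallothionein gene named after its values were seen (log2 change -0.44 and -0.39, limma adjusted p = 0.13 and 0.0914). The list was chosen with earlier results of these data known. Their median change lay 0.61, 0.61 and 0.23 above that of all rows at 15 min, 1 h and 6 h. Pdk4, the kinase that restrains pyruvate dehydrogenase, was 2.41-fold higher at 15 min and 2.27-fold at 1 h (limma adjusted p = 0.0202 and 0.00867), Fkbp5, a chaperone of steroid receptors, 2.15-fold and 1.97-fold (0.0405 and 0.0209), and Sgk1, a steroid-induced kinase, 2.19-fold and 2.02-fold (0.0468 and 0.0239). Zbtb16, a zinc finger factor, was 3.29-fold higher at 1 h (adjusted p = 0.0448) and 3.57-fold at 15 min (not called, 0.0855). Leaving out 1 library in turn lost the 15 min calls of Pdk4, Fkbp5 and Sgk1 in 4, 9 and 10 of 11 runs, and the 1 h calls of Pdk4, Fkbp5, Sgk1 and Zbtb16 in 0, 4, 5 and 9. With only the 2 groups compared, all these calls but that of Pdk4 at 1 h were lost. The replicate block lost all but those of Pdk4. The calls of Sgk1 at 15 min and Zbtb16 at 1 h were also lost with missing values at the lowest value and without the mean-variance trend. Cyclic loess lost that of Sgk1 at 15 min.

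**Figure D4:**
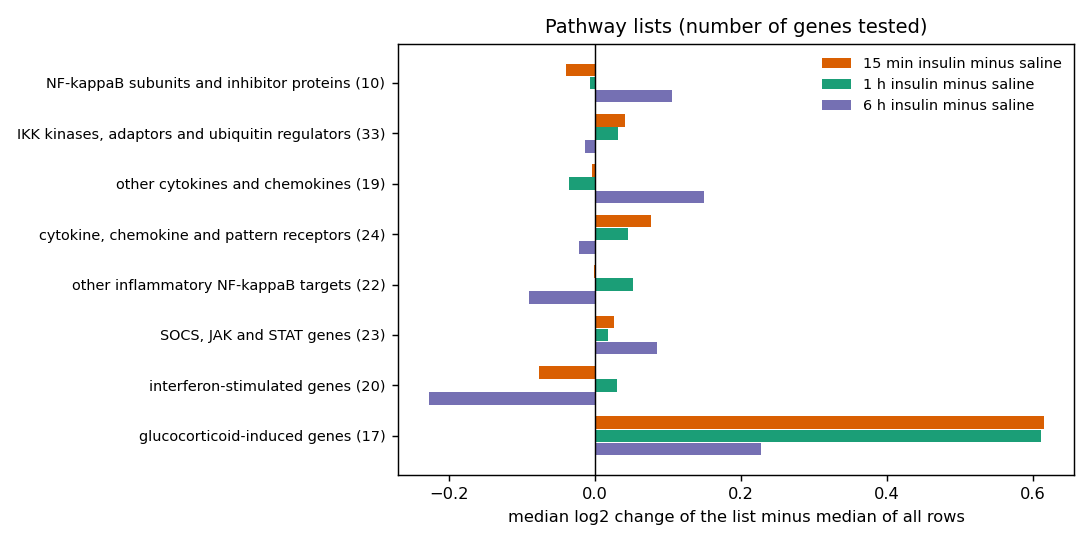
Median log2 change of each pathway list minus the median of all rows (horizontal axis) at 15 min, 1 h and 6 h against saline, with the number of genes tested in brackets. The 7 NF-kappaB, cytokine and interferon lists stay within 0.23 of the median of all rows, and the 17 glucocorticoid-induced genes lie 0.61, 0.61 and 0.23 above it. The lists were chosen with earlier results of these data known, so their difference is a description.

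Cell type markers bear on these values, since in bulk tissue fewer cells of a type and less RNA per cell cannot be told apart. Neuron, astrocyte and oligodendrocyte markers were present in all libraries, and so were all 8 markers of hippocampal subfields looked up, Prox1 and C1ql2 of the dentate gyrus among them. Of the 13 microglial markers reported here, none of those tested was called at any time against saline. P2ry12 was the exception in level. Its log2 signals of -12.01 to -9.40 put it under the filter, and it was not tested. The other markers made up nearly all of the sum that follows. The summed linear signal of these 13 was 23.98 to 27.05 (saline), 22.53 to 24.88 (15 min), 21.91 to 25.11 (1 h) and 23.12 to 25.58 (6 h).

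The 13 endothelial markers, of which none was called, summed to 12.02 to 18.17 (saline), 9.511 to 11.72 (15 min), 10.42 to 11.32 (1 h) and 11.62 to 14.9 (6 h). Of these 13, 4, 5 and 2 had a positive change at 15 min, 1 h and 6 h, with a median of -0.39, -0.25 and -0.16. At an unadjusted p under 0.05 (limma) 4, 5 and 2 were lower and 1, 0 and 0 higher. In either direction 15.1%, 15.7% and 6.98% of all rows stood there. Vwf, named after its values were seen, had a log2 change of 1.05 at 15 min (limma adjusted p = 0.106). The 9 pericyte and mural markers, none called, summed to 11.66 to 12.35 (saline), 8.303 to 9.467 (15 min), 8.598 to 10.96 (1 h) and 8.455 to 10.72 (6 h), so that every insulin library lay below every saline library. At an unadjusted p under 0.05 (limma) 4, 4 and 2 of these 9 stood at 15 min, 1 h and 6 h, all of them lower. Neutrophil, lymphocyte and red cell markers, 11 of 15 tested and none called, summed to 65.06 to 77.97 (saline), 48.37 to 97.08 (15 min), 61.67 to 100.3 (1 h) and 47.04 to 58.27 (6 h), with Ly6g missing in all libraries of saline, 15 min and 6 h. Border macrophage markers (7 tested, none called) summed to 0.5919 to 0.6656 (saline), 0.4394 to 0.4853 (15 min), 0.6846 to 0.7734 (1 h) and 0.511 to 0.831 (6 h). Choroid plexus markers varied most between libraries, at 43.29 to 65.2 (saline), 31.31 to 139.7 (15 min), 4.896 to 93.72 (1 h) and 2.88 to 26.28 (6 h). In 15 min replicate 1, which had the higher Icam1, Ccl2, Il1b and Cxcl1 of its pair, the choroid plexus sum was 139.7 and the blood cell sum 97.08, and in replicate 3 they were 31.31 and 48.37. Most of the choroid plexus sum in these libraries was the single marker Ttr, with log2 signals of 6.98 and 4.71. In 1 h replicate 3 the choroid plexus sum was 93.72, the highest of its group, and the blood cell sum 85.22. Ttr, at 6.39, again made up most of that choroid plexus sum. That library had the lowest Icam1 (-3.58) and Ccl2 (-7.21) of its group. The part of these shifts in the values of Icam1, Ccl2, Il1b and Tnf was not tested.

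The libraries had a value for 32037 to 33653 rows. The 18S ribosomal RNA row Rn18s-rs5 had a log2 signal of 14.28 ± 1.54 with saline (SD, n = 3), 10.08 ± 0.58 after 15 min (n = 2), 10.30 ± 0.18 after 1 h and 11.63 ± 0.58 after 6 h (n = 3 each), with every insulin library below every saline library. Numbers in the names of the deposited columns run by group, so an effect of their order and one of insulin cannot be told apart. The part of the 18S row in the change of Nfkbia was not tested.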

How the data were processed

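RNA of the hippocampus was sequenced in 11 libraries (3 saline, 2, 3 and 3 insulin at 15 min, 1 h and 6 h) from a stranded total RNA kit, per the labels' protocols. The authors deposited 1 log2 signal per gene and library. Software listed in the submitters' processing notes is bcl2fastq and Partek 6.7, with the build GRCm38; which aligner, counter and annotation were used is not given in the sources used here. Judged by the values, the table is quantile normalized between libraries (minimum -13.64, median -3.20 and maximum 16.00 in each), and the log base was read from 4563 rows with a value in some libraries, whose differences were most frequent at 0.9 to 1. Library depth is unknown, so no counting interval can be given. A cell with no value was treated as missing.

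R 4.3.3 and limma 3.58.1 were used. Rows in the lowest 40% by mean were left out (cutoff -8.66; missing values set at the lowest value for this ranking only), which kept 27721 of 46202 rows, 1950 of them with a missing value. A model with 4 groups was fitted to all libraries, with empirical Bayes shrinkage and a mean-variance trend; tests were two-sided, with Benjamini-Hochberg adjustment over all rows tested in each of 7 comparisons and a threshold of 0.05. All insulin libraries were compared with saline in a 2-group fit. The fit was tested on simulated data. The comparisons with saline share the saline libraries. Alternatives changed the filter, scaling, pseudocount (0.1), missing values, variance prior, groups fitted and replicate block, and left out each library in turn.

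The members and lists were chosen with earlier results of these data known. In the microglial list, 1 marker is not reported here. Of each list the text names genes past the threshold against saline, otherwise the 2 with the smallest p, and Lcn2 stands in both the inflammatory target and the glucocorticoid list. Names, coordinates and promoters are those of RefSeq on GRCm38.p6, where 37292 symbols were found; spliced lengths came from the GENCODE annotation in the reference. Rows of like length for the end of detection were those within a factor of 1.25 in spliced length with a value in at most 6 libraries.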

Additional observations from a re-analysis of the deposited data

Results flagged for a closer look

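Icam1 and Il1b lay on opposite sides of the saline mean at the earliest and the latest time. For Icam1 both 15 min libraries were above the saline mean, by 0.93 log2 units on average, and all 6 h libraries below it, by -0.19. For Il1b both 15 min libraries were above it, by 0.55, and all 6 h libraries below it, by -0.80. The difference of 6 h against 15 min was tested in the same model and did not pass for either gene (limma adjusted p = 0.245 for Icam1 and 0.365 for Il1b). The Icam1 difference at 15 min was 0.51 without 15 min replicate 1, and the Il1b difference at 15 min was -0.17 without saline replicate 2. No group of saline, 15 min, 1 h or 6 h holds enough libraries for a check of single outlying values.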

How the results depend on the processing

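The 1 h call of Nfkbia held in 13 of 19 alternatives and was lost in 6, with an adjusted p of 0.0184 to 0.107 over them. It was lost with only the 2 groups compared, where 0 members were called, with the replicate block (0 members, Nfkbia adjusted p = 0.0537), and without 1 h replicate 1 or 2 or saline replicate 1 or 2, so that runs without 1 library called 0 to 1 members. Over all member changes and alternatives, 990 kept their direction and their side of the threshold, 6 were these losses and 29 changed sign; none of these 29 had been called, and their cause was not tested. Counts of called rows moved more. For 15 min against saline (66 called, 12 higher and 54 lower) they were 31 after cyclic loess (10 higher, 21 lower), 114 without the mean-variance trend, 1 with only the 2 groups, 38 with the replicate block, and 5 (without 15 min replicate 3) to 103 (without 6 h replicate 2) without 1 library. For 1 h against saline (243 called, 36 higher and 207 lower) they were 136 after cyclic loess (40 higher, 96 lower), 138 with only the 2 groups, 159 with the replicate block, and 42 (without 1 h replicate 1) to 477 (without 6 h replicate 2) without 1 library. With missing values at the lowest value, 6 rows were called for 6 h against saline, 10 for 1 h against 15 min, 9 for 6 h against 1 h, 24 for 6 h against 15 min and 21 for all insulin against saline. For 6 h against 1 h (3 called) and 6 h against 15 min (2 called), the 2 groups alone and the replicate block each gave 0, runs without 1 library gave 0 to 4 and 0 to 3, and 6 h against 15 min gave 6 without the trend. All insulin against saline (33 called) gave 56 with the stricter filter, 51 with the pseudocount, 0 without the trend or with the replicate block, and 0 (without saline replicate 1) to 63 (without 6 h replicate 1) without 1 library.

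Signs turned as follows. After cyclic loess Nfkbiz was 0.15 at 15 min, Tnfaip3 0.13 at 1 h and Il1b 0.050 over all insulin times. Tnfaip3 was -0.014 at 15 min with the replicate block, and Il1b -0.027 at 1 h with the pseudocount. With missing values at the lowest value Tnf was -2.81 at 15 min, 2.53 for 1 h against 15 min and 0.040 for 6 h against 15 min. Without 1 library the 15 min changes ran from -0.098 to 0.048 for Nfkbiz, -0.023 to 0.21 for Tnfaip3, -0.24 to 2.94 for Ccl2 and -0.17 to 1.03 for Il1b. The 1 h changes ran from -0.17 to 0.12 for Tnfaip3, -0.66 to 0.53 for Il1b and -0.70 to 0.48 for Tnf. For 1 h against 15 min they ran from -0.066 to 0.23 for Nfkbia, -0.24 to 0.055 for Tnfaip3 and -2.28 to 0.91 for Ccl2. Socs3 ran from -0.12 to 0.075 for 6 h against 1 h and from -0.011 to 0.37 for 6 h against 15 min, where Ccl2 ran from -1.28 to 1.90. Over all insulin times Il1b ran from -0.85 to 0.34 and Tnf from -0.68 to 0.49.

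The median change of the tested members, an alternative added after seeing the data, ran without 1 library from 0.10 to 0.90 at 15 min, from -0.094 to 0.33 at 1 h and from -0.23 to -0.14 at 6 h. At 15 min it was 0.056 with the pseudocount and 0.067 under the stricter filter. After cyclic loess it was 0.21 at 1 h and -0.16 at 6 h, where the pseudocount gave -0.088.

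Whether the replicate numbers pair the libraries was not settled. The deviations of same-numbered libraries from their group means correlated at -0.056 to 0.237 in 15 pairs, 7 of them over 0.1, and those of other pairs at -0.25 to 0.25 in 30, 5 of them over 0.1. Ccl2, Il1b and Tnf gave no value under the stricter filter, nor Tnf at 15 min without 15 min replicate 1. With 2 or 3 libraries a group and unknown depth, changes of Ccl2, Il1b and Tnf smaller than their intervals could not be detected. Where a run left 1 library at 15 min, it was assumed to vary like the other groups.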
